A study of Homo sapiens with 6 samples.

Results

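The 40 genes described here serve the endoplasmic reticulum (ER), the compartment where secreted and membrane proteins are folded: its chaperones, disulfide-forming enzymes and prolyl isomerases, the sensors of the unfolded protein response, and the machinery of ER-associated degradation, translocation and export. They were chosen by function from the literature, with earlier results of these data known, and matched by gene symbol. All 40 were found among the 19475 symbols of the table. Transcripts were measured by RNA sequencing in MH7A, an immortalised synovial fibroblast line from a patient with rheumatoid arthritis, so every library comes from 1 line. All 6 libraries had 10 ng/ml TNF-alpha, an inflammatory cytokine. The 3 called LED here (replicates 4, 6 and 10) were also exposed to 630 nm red light, in 3 exposures of 15 min, and the 3 called TNF (replicates 2, 8 and 14) were not. There was no group without TNF-alpha, and the labels do not say that the libraries are separate cultures.

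The unfolded protein response adjusts the folding capacity of the ER to its load. The chaperone HSPA5 (BiP) binds unfolded chains and also holds 3 membrane sensors, ERN1 (IRE1), EIF2AK3 (PERK) and ATF6, in check. When these are released, ATF6 and spliced XBP1 act as transcription factors on chaperone and degradation genes, many of which carry ER stress response elements (ERSE) in their promoters. Fibroblasts of the joint lining secrete large amounts of collagen and other matrix proteins and depend on this folding machinery.

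The promoters are shown first, as a description of the members. The members were chosen by function around the unfolded protein response, many of whose target genes carry an ERSE. A high share of ERSE among them is therefore no independent evidence about the set or about LED light. A RefSeq promoter (GRCh38.p14) was found for 35 of the 40 genes, and the 250 bases before each gene start were searched on both strands. The ERSE (CCAAT and CCACG with 9 bases between them) was found in 8 of the 35, which is 22.9%, against 0.0916% of all 27305 genes with a promoter. These were HSPA5, HSP90B1, CALR, CANX, PDIA6, CRELD2, ERO1B and XBP1. The related ERSE-II (ATTGG and CCACG with 1 base between them) was found in HERPUD1, HYOU1 and SDF2L1, or 8.57% against 0.0659%. The UPRE (TGACGTGG or TGACGTGA) was found in HYOU1, SSR3 and TXNDC5, also 8.57%, against 1.22%. The share for the UPRE was alike in 90 other ER genes of the same roles, at 8.89%, while none of those 90 held an ERSE or ERSE-II. In HYOU1 it overlaps an ERSE-II match. No member matched the heat shock element (3 blocks alternating between GAA and TTC with 2 bases between blocks), which 0.557% of all genes held, and 7 of 20 heat shock genes with a promoter (35.0%) did. A match is a description of the letters in this window, and no match says only that these letters are not there.

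The sequences below are the matches of members with some of the largest differences in their roles, with ERSE or ERSE-II letters in capitals, 5′ to 3′ on the strand of the gene. Positions count back from -1, the base before the gene start. The HSPA5 window (chr9:125241344-125241493, minus strand) covers -150 to -1, with 1 exact ERSE match at -66 to -48. Elements that differ from the searched letters were not counted, in this window or the others. HSP90B1 (chromosome 12, plus strand) has an ERSE at -194 to -176 and another in the opposite orientation at -89 to -71. HYOU1 (chr11:119057266-119057405, minus strand) has ERSE-II matches at -185 to -175 and -79 to -69. SDF2L1 (chr22:21642092-21642151, plus strand) has its ERSE-II at -188 to -178 and HERPUD1 (chr16:56932002-56932047, plus strand) at -117 to -107. ERO1B (chr1:236282159-236282208, minus strand) has its ERSE at -243 to -225.
HSPA5: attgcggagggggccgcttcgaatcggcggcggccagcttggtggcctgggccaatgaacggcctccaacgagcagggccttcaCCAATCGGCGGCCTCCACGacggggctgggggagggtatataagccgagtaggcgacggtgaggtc
HSP90B1, distal: ctgaCCAATCGGAAGGAGCCACGctt
HSP90B1, proximal: ggtgCGTGGTGCGGCGCGATTGGtgg
HYOU1: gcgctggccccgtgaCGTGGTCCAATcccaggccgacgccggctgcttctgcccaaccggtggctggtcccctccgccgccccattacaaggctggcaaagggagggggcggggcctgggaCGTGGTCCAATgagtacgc
SDF2L1: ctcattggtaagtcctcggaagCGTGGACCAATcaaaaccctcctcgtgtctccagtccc
HERPUD1: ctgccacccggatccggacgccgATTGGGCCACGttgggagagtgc
ERO1B: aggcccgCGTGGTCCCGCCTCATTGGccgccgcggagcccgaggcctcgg

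With LED light, HSPA5 rose and was the single member of the 40 that passed the test in edgeR (adjusted p below 0.05 over all genes, "called" below). None fell, and 39 did not pass. Over all 13794 genes tested, 2.44% were called higher and 2.73% lower. All 40 members passed the filter on low counts. Without the adjustment over genes, 14 members had a p below 0.05 with a higher level in LED and 1 with a lower level, against 10.9% and 11.8% of all genes. The log2 fold change (LED minus TNF) was above 0 for 35 of the 40, against 50.8% of all genes tested. Its median over the members was 0.36, against 0.01 over all genes. In 17 members all LED libraries were above all TNF libraries and in 2 (ATF6 and EDEM1) all were below, where each of these held for 16.2% of all genes. DESeq2, the other count test, called 4 members higher (HSPA5, HSP90B1, HYOU1 and SDF2L1) and none lower, against 5.64% of all genes called higher.

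**Figure D1:**
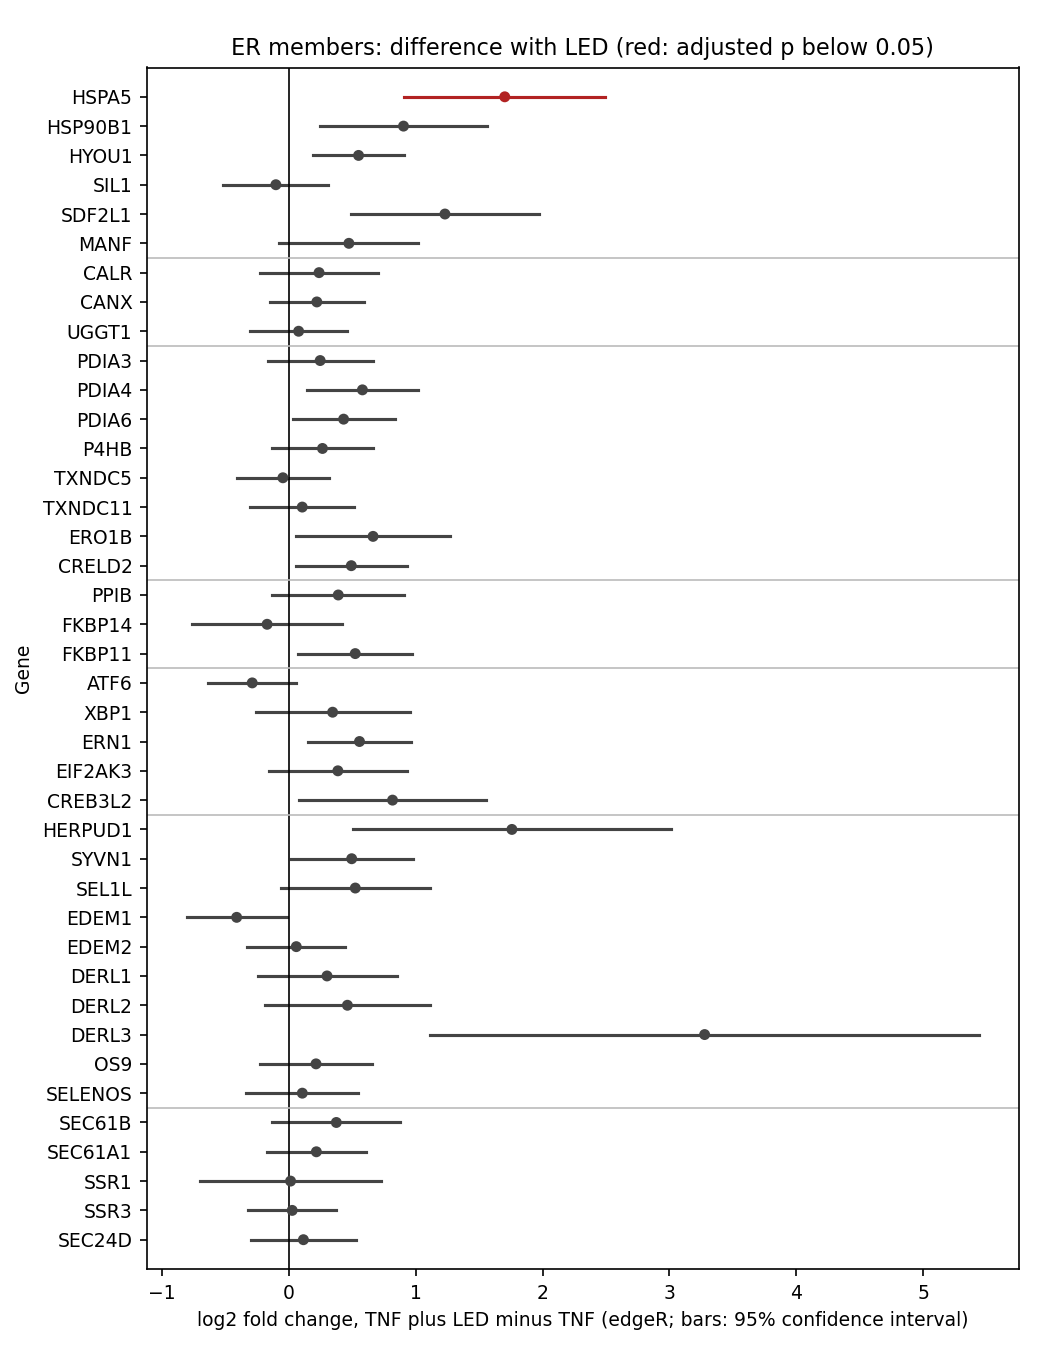
The log2 fold change of each of the 40 members (LED minus TNF, x axis) with its 95% confidence interval, grouped by role from top to bottom in the order of the text. HSPA5, in red, is the member past the threshold at 1.70, and 35 of the 40 points lie to the right of 0.

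The 3 LED libraries did not contribute equally. LED replicate 6 was the highest of all 6 libraries in 32 of the 40 members, against 25.2% of all genes. It lay above every TNF library in 33 members, LED replicate 4 in 20 and LED replicate 10 in 18, where the shares over all genes were 33.7%, 29.0% and 29.1%. The median member stood 0.65 above its TNF mean on the log2 scale in LED replicate 6, 0.17 in LED replicate 4 and 0.15 in LED replicate 10. Without LED replicate 6 the median fitted log2 fold change of the members was 0.15 in place of 0.36. Summed over the members, 1.51% to 1.60% of all counts fell on them with TNF, and 2.02% (LED replicate 4), 2.68% (replicate 6) and 1.88% (replicate 10) with LED. Abundant members weigh most in such a sum, and HSPA5 was a large part of its rise. In LED replicates 4, 6 and 10 HSPA5 had 3267, 7472 and 2806 CPM of 19916, 28751 and 18478 for all members. With TNF its mean was 1389 CPM, of 15209 to 15897 for all members. A list of 22 cytosolic and other heat shock genes had the same order of the 3 LED libraries. It took 0.938% to 1.02% of counts for TNF against 4.18% (LED replicate 4), 5.49% (replicate 6) and 3.05% (replicate 10). Its part in the ER result was not tested. Among the TNF libraries, replicate 8 was the lowest of all 6 libraries for 15 members, against 30.5% of all genes.

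**Figure D2:**
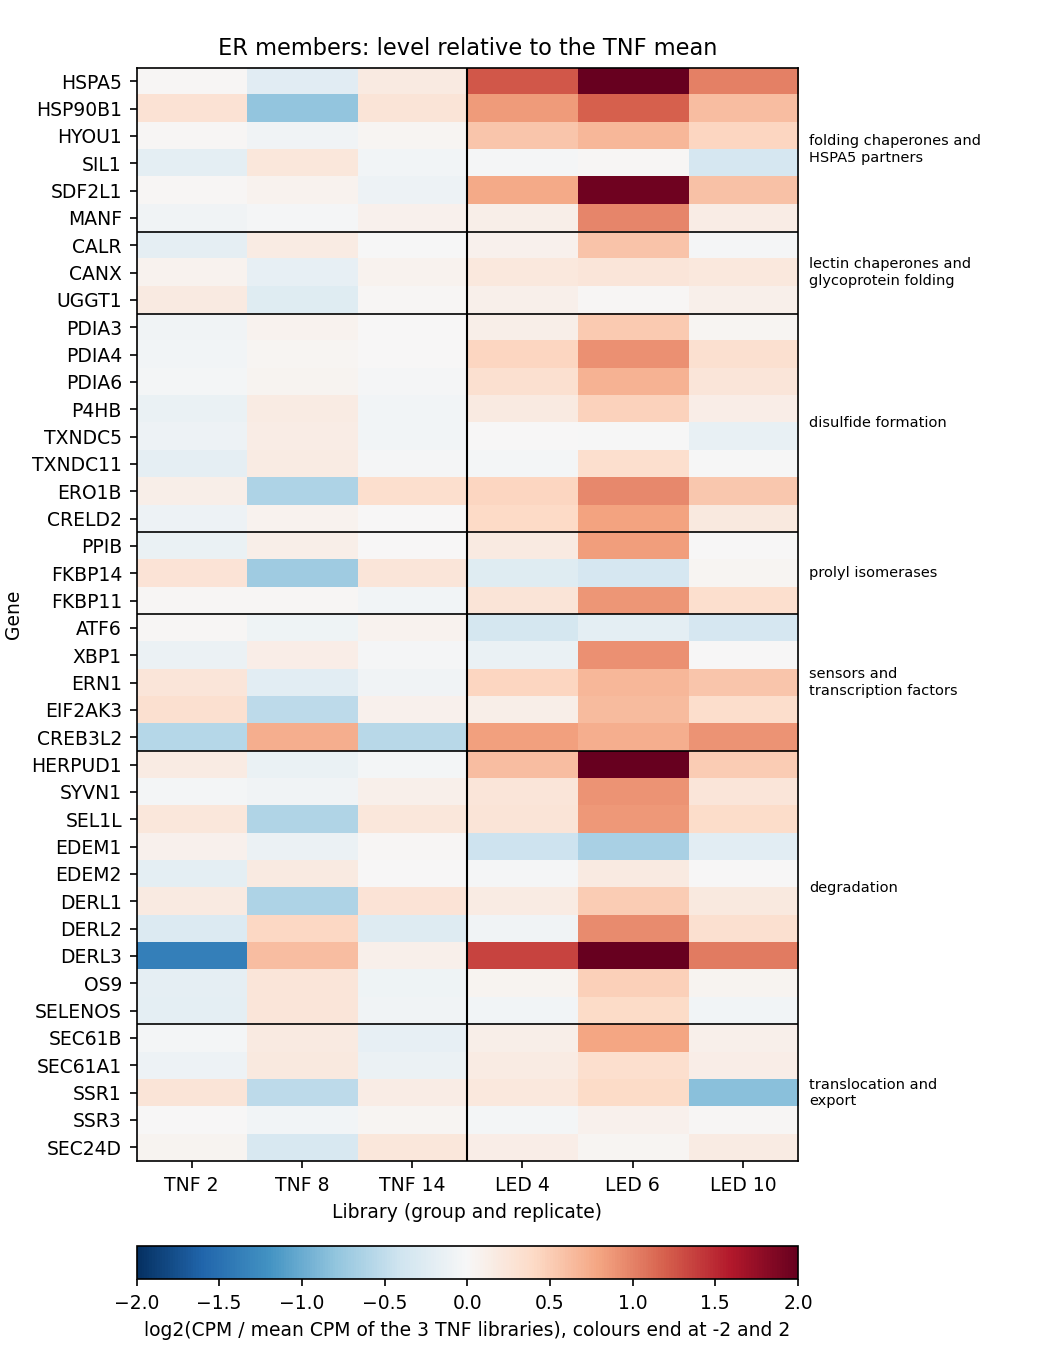
Colour gives the log2 ratio of each library's CPM (counts per 1000000, on library sizes scaled by TMM) to the mean of the 3 TNF libraries, for 40 members (rows, grouped by role) and 6 libraries (columns). The column of LED replicate 6 is the reddest, with the highest value of the row in 32 of 40 rows, and ATF6 and EDEM1 are blue in all 3 LED columns.

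Levels per length ranked the members by abundance (mean CPM per kilobase of annotated exon, GENCODE 29). With TNF the highest was the lectin chaperone CALR at 897, followed by PPIB at 391, HSPA5 at 355, P4HB at 298 and HSP90B1 at 273. CALR was the highest in each TNF library, but the order below it changed between them: P4HB was above HSPA5 in replicate 8, where HSP90B1 was also below CANX, PDIA3 and SEC61A1, while HSPA5 was above PPIB and HSP90B1 above P4HB in replicates 2 and 14. The lowest were DERL3 at 0.116, ERO1B at 1.41 and the sensor ERN1 at 2.60. With LED, HSPA5 (1155) and CALR (1057) were at the top. HSPA5 and CALR cannot be ranked there beyond the spread, because HSPA5 itself ranged from 2806 to 7472 CPM in the 3 LED libraries. Per kilobase, HSPA5 was above CALR in LED replicate 6 alone, and below it in LED replicates 4 and 10.

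Among the folding chaperones, HSPA5, which captures unfolded chains and is the best known marker of ER stress, stood at 1417, 1182 and 1567 CPM (counts per 1000000) for TNF, in the order replicate 2, 8, 14. With LED, in the order replicate 4, 6, 10 that is kept throughout, it stood at 3267, 7472 and 2806 CPM. Every LED library was above every TNF library, and replicate 6 was the highest by 2.46 times the mean of the other LED libraries. The means were 1389 ± 194 and 4515 ± 2571 CPM (SD, n = 3 each), a 3.25-fold rise (log2 1.70 ± 0.35 SE, adjusted p = 0.0323). The call was lost without TNF replicate 8 or 14 or without LED replicate 4 or 6 (adjusted p 0.0525 to 0.0883). Calls over all genes also fell in these settings, from 336 higher to 244, 70, 83 and 59 in that order. Omitting LED replicate 6 brought the log2 fold change of HSPA5 to 1.13.

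SDF2L1, a partner of HSPA5 and its co-chaperones, had 29.9, 30.8 and 27.5 CPM with TNF and 49.8, 113 and 44.3 with LED. The groups did not overlap, and the log2 fold change was 1.23 ± 0.33 (adjusted p = 0.0632). HYOU1 (GRP170), which releases ADP from HSPA5, had 323, 305 and 329 CPM with TNF and 466, 505 and 428 with LED. Here the LED libraries were close together, with a log2 fold change of 0.55 ± 0.16 (adjusted p = 0.0807). HSP90B1 (GRP94), the HSP90 of the ER, had 1564, 745 and 1543 CPM with TNF and 2306, 2925 and 1970 with LED. TNF replicate 8 was at 0.480 times the mean of the other TNF libraries, so the log2 fold change of 0.90 ± 0.29 (adjusted p = 0.108) leaned on it. The groups were also apart for MANF, a secreted HSPA5-binding factor, at 103 to 115 CPM with TNF and 116, 213 and 119 with LED (log2 0.47 ± 0.24). SIL1, the other nucleotide exchange factor for HSPA5, had overlapping groups and a log2 fold change of -0.10 ± 0.18.

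**Figure D3:**
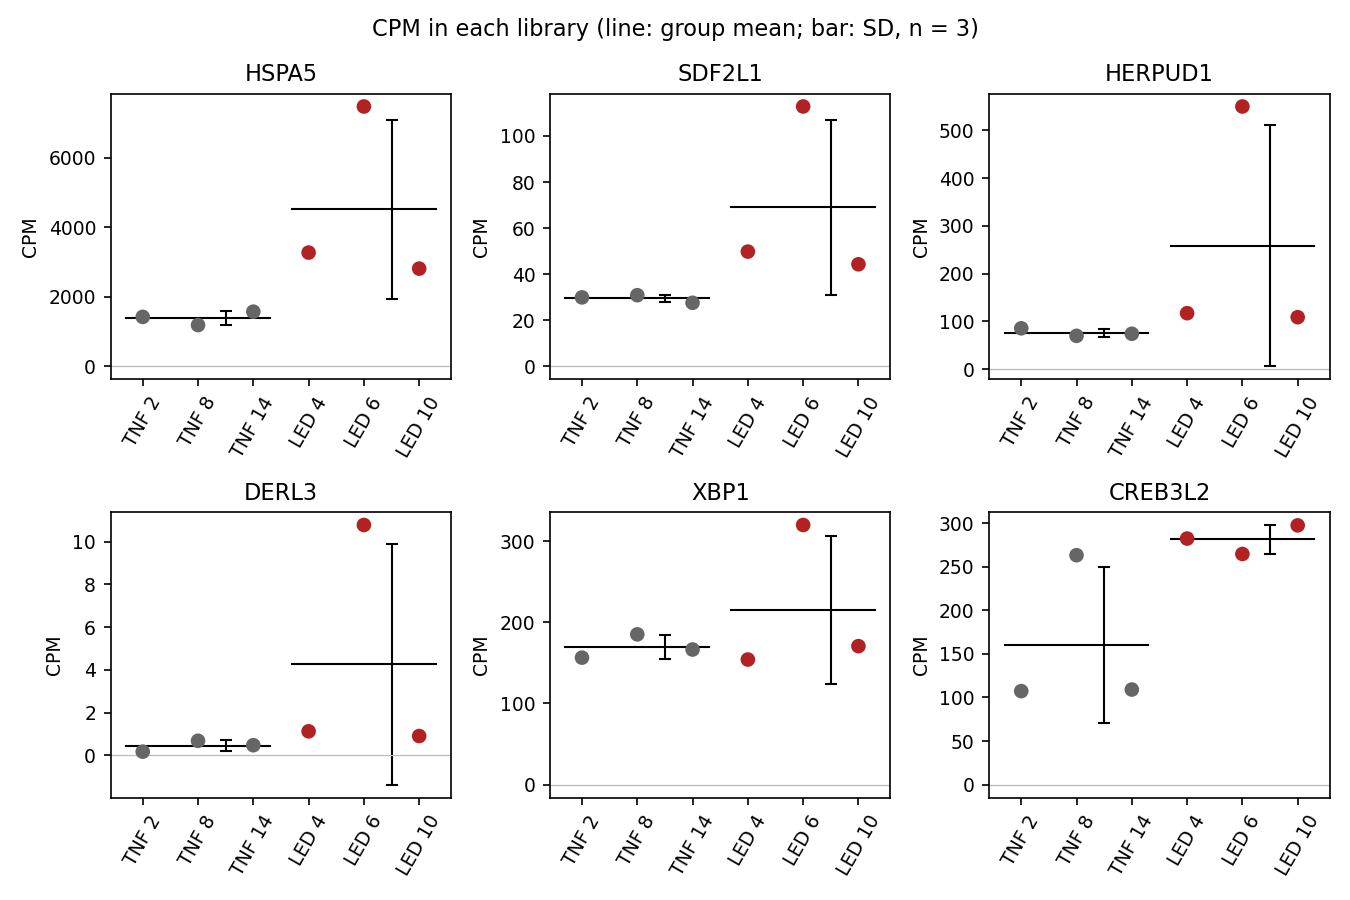
CPM (y axis, from below 0 to show the bars) of 6 members in each of the 6 libraries, grey for TNF and red for LED, with the group mean as a line and the SD as a bar (n = 3 each). HSPA5, SDF2L1, HERPUD1 and DERL3 have all LED points above all TNF points with LED replicate 6 far above the rest. XBP1 is raised in LED replicate 6 but not in the other LED libraries. The CREB3L2 point of TNF replicate 8 lies just below the lowest LED point.

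The lectin chaperones CALR and CANX hold glycoproteins that carry a terminal glucose, and UGGT1 puts the glucose back on those that are still misfolded. Of these 3, none was called and the log2 fold changes lay between 0.08 and 0.24. CANX had 1520, 1283 and 1522 CPM with TNF and 1670, 1699 and 1666 with LED, which did not overlap. CALR had 2145, 2738 and 2424 CPM with TNF and 2598, 3612 and 2399 with LED, so its groups overlapped and LED replicate 6 was the highest. UGGT1 had 232, 174 and 209 CPM with TNF and 219, 208 and 221 with LED, with the LED libraries inside the TNF range. The 95% confidence intervals were -0.15 to 0.59 for CANX, -0.23 to 0.70 for CALR and -0.30 to 0.46 for UGGT1 on the log2 scale, so changes of that size cannot be told from none here.

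Disulfide formation had 8 members, none of them called, and the log2 fold change was above 0 for 7. PDIA4, a disulfide isomerase, had 324, 346 and 340 CPM with TNF and 451, 634 and 422 with LED (log2 0.58 ± 0.19, adjusted p = 0.118). Its LED libraries were all above its TNF libraries. CRELD2, a secreted folding factor that is induced by ER stress, had 55.8, 62.9 and 60.2 CPM with TNF and 78.9, 104 and 68.3 with LED (log2 0.49 ± 0.19, adjusted p = 0.172). ERO1B, an oxidase that recharges the disulfide isomerases, was scarce, at 8.24, 4.95 and 9.52 CPM with TNF and 10.2, 14.7 and 11.0 with LED (log2 0.66 ± 0.27, adjusted p = 0.182), and TNF replicate 8 was again low. PDIA6, another isomerase, was also apart between groups (459 to 487 CPM against 586, 758 and 553, log2 0.43 ± 0.18). PDIA3, which works with the lectin chaperones, and P4HB, which is also a subunit of the collagen prolyl 4-hydroxylase, overlapped between groups at log2 fold changes of 0.25 and 0.26. TXNDC11 and TXNDC5, thioredoxin-like proteins, stood at 0.10 and -0.05. Exons of TXNDC5 share 60.6% of their bases with a read-through gene, so its counts are uncertain.

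The prolyl isomerases help proline-rich chains such as collagen to fold. None of the 3 was called. FKBP11 had 20.3, 20.4 and 19.3 CPM with TNF and 24.0, 36.8 and 25.4 with LED, with no overlap (log2 0.52 ± 0.20, adjusted p = 0.162). PPIB (cyclophilin B) had 679, 809 and 753 CPM with TNF and 850, 1331 and 751 with LED, where replicate 6 alone was well above the TNF range (log2 0.39 ± 0.23). FKBP14 had 96.5, 48.5 and 94.2 CPM with TNF and 67.5, 63.0 and 81.5 with LED. Its LED libraries lay inside the TNF range, and the log2 fold change was -0.17 ± 0.26, or -0.43 without TNF replicate 8.

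None of the 5 sensors and transcription factors was called. ERN1, the kinase and RNase that splices XBP1 mRNA, had 33.4, 24.3 and 27.0 CPM with TNF and 38.1, 44.8 and 41.6 with LED. All LED libraries were above the TNF libraries, and the log2 fold change was 0.56 ± 0.18 (adjusted p = 0.108). XBP1 had 157, 185 and 167 CPM with TNF and 154, 320 and 171 with LED, so it was high in LED replicate 6 and within or below the TNF range in the other LED libraries. Its log2 fold change was 0.34 ± 0.27, and -0.06 without LED replicate 6. Counts per gene do not separate spliced from unspliced XBP1. EIF2AK3, the kinase that slows translation by phosphorylating eIF2alpha, had 38.7, 21.6 and 32.9 CPM with TNF and 33.5, 48.4 and 39.7 with LED (log2 0.38 ± 0.24). ATF6, the sensor that is cut in the Golgi to free a transcription factor, had 106, 98.1 and 109 CPM with TNF and 82.0, 91.2 and 82.8 with LED. It was lower in all LED libraries (log2 -0.29 ± 0.16, adjusted p = 0.306).

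CREB3L2, a membrane-bound factor related to ATF6 that acts on secretory pathway genes, showed a different pattern of libraries. Its levels were 107, 263 and 109 CPM with TNF and 282, 265 and 298 with LED. TNF replicate 8 was at 2.43 times the mean of the other TNF libraries and within 2 CPM of the lowest LED library. All LED libraries were above all TNF libraries, but only by this narrow margin. The log2 fold change was 0.82 ± 0.33 (adjusted p = 0.179). Without TNF replicate 8 it was 1.38 and was called (adjusted p = 0.0129), the single member called in that setting. There, 244 of all 14063 genes tested were called higher.

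In ER-associated degradation, misfolded proteins are recognised, moved back to the cytosol and ubiquitinated, and none of the 10 members was called. HERPUD1, which assembles the ligase complex and is a strong target of the unfolded protein response, had 85.6, 69.8 and 74.1 CPM with TNF and 117, 550 and 109 with LED. All LED libraries were above the TNF libraries, and replicate 6 was at 4.86 times the mean of the other LED libraries. The log2 fold change was 1.76 ± 0.56 (adjusted p = 0.102), and 0.56 without LED replicate 6. DERL3, a derlin of the retrotranslocation channel, had the largest log2 fold change among the members, 3.28 ± 0.96 (9.70-fold, adjusted p = 0.0825). It had 0.170, 0.679 and 0.473 CPM with TNF and 1.12, 10.8 and 0.902 with LED. Its counts were 19, 69 and 41 with TNF and 119, 1085 and 87 with LED, where about 4 counts appear to stand for a fragment, so the TNF levels rest on few fragments. Without LED replicate 6 its log2 fold change was 1.20. Exons of DERL3 overlap those of SMARCB1 over 77% of their bases, counted without regard to strand. SMARCB1 ranged from 59.0 to 83.7 CPM over the 6 libraries, with 77.0 in LED replicate 6. The strand setting of the counts is not given, so the split of reads between these genes is uncertain.

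EDEM1, a mannosidase that marks glycoproteins for degradation, stood on the other side. It had 103, 89.2 and 98.4 CPM with TNF and 72.6, 61.7 and 83.8 with LED, lower in every LED library and lowest in replicate 6 (log2 -0.41 ± 0.18, adjusted p = 0.199). SYVN1 (HRD1), the ubiquitin ligase, had 55.3, 54.0 and 61.0 CPM with TNF and 66.9, 106 and 67.2 with LED (log2 0.49 ± 0.21, adjusted p = 0.207). SEL1L, the adaptor of that ligase, was also apart between groups (221, 125 and 223 CPM against 226, 347 and 245, log2 0.52 ± 0.26), with TNF replicate 8 low. The groups overlapped for DERL1, DERL2, the lectin OS9, the channel partner SELENOS and the mannosidase EDEM2, whose log2 fold changes lay between 0.06 and 0.46.

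Translocation and export had the lowest median log2 fold change of the 7 roles (0.11). None of the 5 members was called, none had groups apart, and the log2 fold changes ran from 0.01 to 0.37. SEC61B and SEC61A1 form the channel through which new chains enter the ER. SEC61B had 76.4, 88.5 and 69.5 CPM with TNF and 84.3, 136 and 83.6 with LED, with replicate 6 alone above the TNF range. SEC61A1 had 899, 1108 and 884 CPM with TNF and 1084, 1217 and 1057 with LED. The TRAP subunit SSR3 was level, at 476 to 505 and 478 to 522 CPM, with a 95% confidence interval of -0.32 to 0.37. SSR1, of the same complex, ranged from 203 to 346 CPM with TNF and from 164 to 379 with LED, so the LED range enclosed the TNF range. SEC24D, a coat protein of export vesicles, had 310, 239 and 351 CPM with TNF and 330, 310 and 335 with LED.

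**Figure D4:**
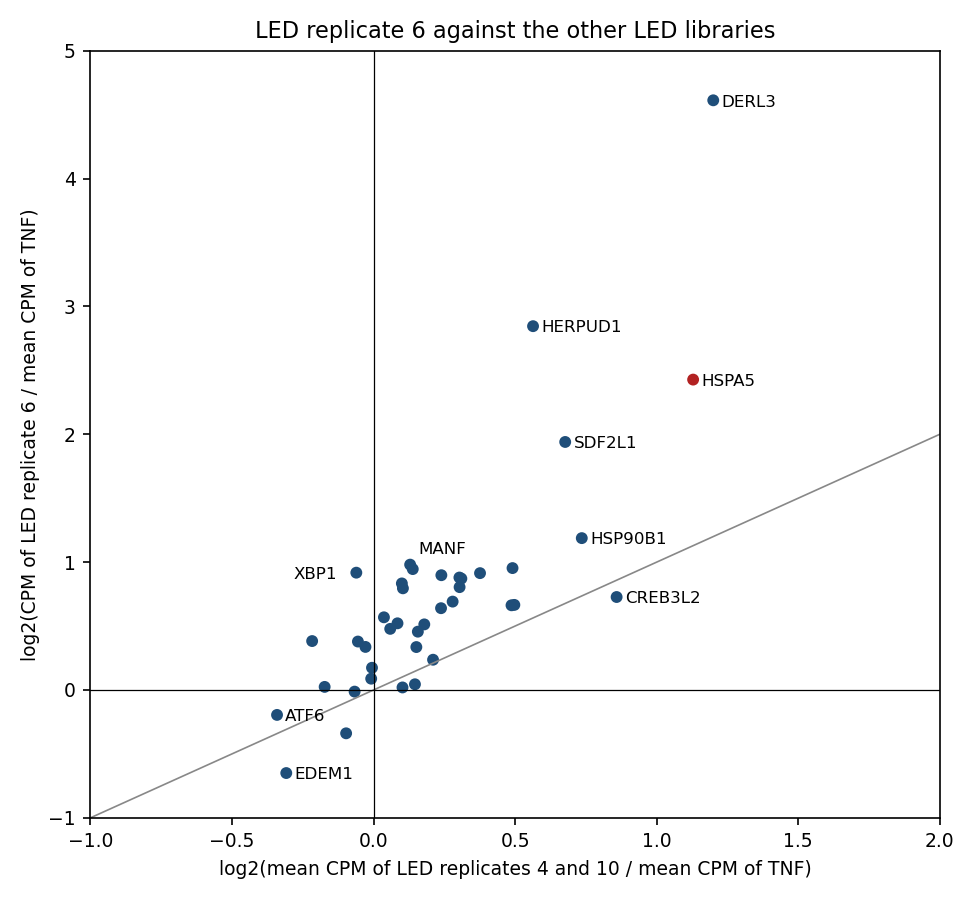
Each point is a member, with the log2 ratio of the mean of LED replicates 4 and 10 to the TNF mean on the x axis and that of LED replicate 6 on the y axis; the grey line marks equal values. Most points lie above the line, DERL3, HERPUD1, HSPA5 and SDF2L1 the farthest. EDEM1, FKBP14, CREB3L2, SEC24D and UGGT1 lie below it, EDEM1 the farthest.

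Left out together, LED replicate 6 and TNF replicate 8 changed the count of calls. With 2 libraries in each group, 7 members were called higher (HSPA5, HSP90B1, HYOU1, SDF2L1, PDIA4, CREB3L2 and HERPUD1) and ATF6 was called lower, against 5.51% and 6.54% of all genes. The log2 fold changes there were smaller for HSPA5 (1.03 against 1.70), HERPUD1 (0.50), SDF2L1 (0.71), HSP90B1 (0.46), HYOU1 (0.46) and PDIA4 (0.40), larger for CREB3L2 (1.42), and -0.38 for ATF6. The median over the members was 0.15 in that setting. This setting was chosen after the data were seen, and both libraries were picked because their values stood apart, which lowers the spread within groups.

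The members with and without an ERSE or ERSE-II differed as follows, as a description. Of the 11 with either element, HSPA5 was called, 9 had all LED libraries above all TNF libraries, and the median log2 fold change was 0.55 (range 0.22 to 1.76). Of the 24 with neither in the window, none was called, 7 had groups apart in the higher direction, and the median was 0.24 (range -0.41 to 0.82). Groups were apart in that direction for 16.2% of all genes tested. The 3 with ERSE-II had a median of 1.23, and in LED replicate 6 the median of these 3 stood at 2.40 times the other LED libraries. PDIA3, FKBP14, SEC24D, DERL1 and DERL3 had no promoter in the table used.

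Other ER genes of the same roles, listed by function with earlier results of these data known, gave a background to the members. Of 105 such genes 2 rose, 2 fell and 101 did not pass, and 62 had a log2 fold change above 0 (median 0.08). Over all genes tested the shares were 2.44% higher, 2.73% lower and 50.8% above 0, so the calls among these genes were no more frequent than over all genes. SERPINH1 (HSP47), the collagen chaperone of the ER, had 985, 811 and 984 CPM with TNF and 2288, 2027 and 1881 with LED (log2 1.16 ± 0.18, adjusted p = 0.0122). It also belongs to the heat shock list, its promoter window holds a heat shock element, and its LED libraries were close together. UBE2G2, a ubiquitin-conjugating enzyme of ER degradation, had 20.3, 26.4 and 19.3 CPM with TNF and 54.5, 41.1 and 60.4 with LED (log2 1.24 ± 0.21, adjusted p = 0.0172). CNPY4, a saposin-like ER protein, fell by 0.72 on the log2 scale, from 17.3 ± 1.66 to 10.5 ± 0.730 CPM (adjusted p = 0.0480). HERPUD2, a paralogue of HERPUD1, fell by 0.75, from 22.7 ± 1.33 to 13.5 ± 1.98 CPM (adjusted p = 0.0468). The calls of CNPY4 and HERPUD2 were lost with any single library left out, that of SERPINH1 without TNF replicate 14 or LED replicate 4, and that of UBE2G2 without TNF replicate 14 or LED replicate 4 or 10.

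Deposited totals were 86000253 to 108074289 estimated counts per library, with 14079 to 14943 genes above 0. The fibroblast label was checked against 12 markers, all detected in every library, whose summed level was 40693 to 43680 CPM with TNF and 35740 to 38832 with LED. Of 10 markers of leukocytes, endothelium and epithelium, CD3E and MS4A1 were at 0 throughout, and the summed level was 125 to 173 CPM with TNF and 145 to 202 with LED, most of it CD68 and KRT18. In bulk RNA, fewer cells with a transcript and less of it per cell cannot be told apart.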

How the data were processed

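RNA sequencing of 6 MH7A libraries was used. The authors deposited one table of estimated counts per gene symbol, as whole numbers and not normalized, which were tested as deposited. Per the submitters' processing notes bcl2fastq 2.0, HISAT2, StringTie, DESeq2 and limma were used, with no roles given. The notes name the mouse build mm10 for human samples, so the human build and the strand setting are not given in the sources used here. Per the labels' protocols, ribosomal RNA was removed with probes and cDNA was primed at random. Of the values between 1 and 7, 67.2% were 4 or 5, so about 4 units appear to stand for 1 fragment.

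LED (n = 3) was compared with TNF (n = 3) by edgeR 4.0.16 in R 4.3.3 (quasi-likelihood test, filterByExpr, TMM, robust, no covariate, two-sided, Benjamini-Hochberg over all 13794 genes tested). Standard errors are the log2 fold change over the square root of F, and intervals use the t distribution with edgeR's degrees of freedom. CPM uses TMM-scaled library sizes. The tests see the spread between these libraries alone, which may be technical, and genes sharing exons or near-identical copies (such as PDIA3 and HSP90B1, which have 2 pseudogenes each) are uncertain. Exon overlap with other genes was counted without regard to strand. After DERL3 and TXNDC5 it was largest for PPIB (27.2%) and PDIA6 (25.2%). No 2 libraries agreed within sampling noise. The members, lists and tests were chosen with earlier results of these data known. All members are named, with values per library for called members, sensors and up to 3 members with the lowest p in each role, and the wider list by its called genes. Values of other members are given where groups were apart. The alternatives were other filters and scalings, DESeq2 1.42.0, limma-voom 3.58.1, counts divided by 4 and each library left out; 1 more was added after the data were seen. The procedure was tested on simulated data. Promoters are from RefSeq. Protein ends, which had been planned, were not analysed here.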

Additional observations from a re-analysis of the deposited data

How the results depend on the processing

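The count of members called higher was 1 in the filters, the scalings, limma-voom and counts divided by 4, but 4 with DESeq2, 7 with both TNF replicate 8 and LED replicate 6 left out, and 0 to 1 with single libraries left out. The count called lower was 0 in these settings except 1 with both libraries left out. For the 105 other ER genes, the higher count was 6 with both left out and 0 to 2 with single libraries left out. Their lower count was 1 with RLE size factors, 0 with library totals only, 1 with limma-voom, 7 with both left out and 0 to 1 with single libraries left out. With both left out, 5.51% of all genes were called higher and 6.54% lower, close to the shares of these 105. With single libraries left out, 59 to 314 of all genes were called higher and 21 to 423 lower. With all libraries these counts were 336 and 377. The median log2 fold change of the members was between 0.15 and 0.49 in all 16 alternatives, lowest where LED replicate 6 was left out. Members near 0 changed sign. SSR1 was at -0.042 with library totals only, -0.04 with limma-voom and -0.42 with both left out, SSR3 at -0.013 with library totals only and -0.0285 with both left out, and with both left out UGGT1 was at -0.0006, TXNDC5 at 0.013 and DERL1 at -0.048. With single libraries left out the ranges were -0.21 to 0.018 (SIL1), -0.031 to 0.16 (UGGT1), -0.11 to 0.027 (TXNDC5), -0.028 to 0.20 (TXNDC11), -0.061 to 0.55 (XBP1), -0.049 to 0.15 (EDEM2), 0.068 to 0.46 (DERL1), -0.055 to 0.24 (SELENOS), -0.22 to 0.30 (SSR1), -0.0082 to 0.0675 (SSR3) and -0.027 to 0.24 (SEC24D). The cause of these changes was not tested. No paired analysis was possible because the groups share no replicate numbers. With 3 libraries in each group, differences of the size of most members' intervals were not detectable, and intervals cover the spread between these libraries alone.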

Other observations

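Some ER genes outside the 40 were named here after their values were seen, and none of these passed the test over all genes. Of the 8 further sensors and regulators, 7 had a log2 fold change below 0, where 50.8% of all genes tested were above 0. The remaining gene, WFS1, had all LED libraries above all TNF libraries (log2 0.15 ± 0.15, adjusted p = 0.611). Among the 7, CREB3L1, a collagen-gene regulator related to CREB3L2, had 322 to 392 CPM with TNF and 230 to 282 with LED (log2 -0.44 ± 0.17, adjusted p = 0.169). MBTPS1, the protease that cuts ATF6 in the Golgi, had 137, 152 and 142 CPM with TNF and 111, 92.5 and 126 with LED (log2 -0.39 ± 0.17, adjusted p = 0.219). Both were lower in every LED library and lowest in LED replicate 6, the library with the highest HSPA5. Of the 41 further genes of translocation and export, 33 had a log2 fold change above 0, and 12 had all LED libraries above all TNF libraries, where the shares over all genes tested were 50.8% and 16.2%. LED replicate 6 was the highest of all 6 libraries in 27 of the 41, against 25.2% of all genes. The median gene of the 41 stood 0.16, 0.43 and 0.08 above its TNF mean (log2) in LED replicates 4, 6 and 10. This group, too, was picked after its values were seen. SRP68, a subunit of the signal recognition particle, had 105, 94.2 and 108 CPM with TNF and 146, 185 and 134 with LED (log2 0.60 ± 0.18, adjusted p = 0.0856).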
